A study of Canis lupus familiaris with 13 samples.

Results

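Messenger RNA of 4 structural genes of the sarcomere was followed in dog heart tissue: NEBL, MYOM2, FLNC and TMOD1. Every probe set whose annotation on the array gave 1 of these symbols was taken, which found 7 of the 10549 probe sets with a single symbol, on an array with 23836 non-control probe sets. NEBL had 2 probe sets, TMOD1 had 3, and MYOM2 and FLNC had 1 each. All 7 passed the filter on low signals and were tested together with the other probe sets that passed, 14302 in all.

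The study compared natural and paced heart disease in dogs, with 1 Affymetrix array for each of 13 separately named samples. Mongrels gave 3 control samples, named P1, P4 and P9, and 3 samples of paced hearts, named LV01, LV02 and LV04. Dilated cardiomyopathy was the diagnosis in 3 Dobermans, named K, L and R, and in 4 Boxers, numbered 1 to 4. The ventricles widen and contract weakly in that disease, and electrical pacing at a high rate is used to induce heart failure in dogs. Age, sex, treatment, heart chamber, and the rate and duration of pacing were not given in the labels. No healthy dog of either breed was among the samples, so breed and disease cannot be told apart where a breed is compared with the mongrel controls. The labels do not say whether samples came from separate animals, and the p-values measure only the spread between these samples.

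The sarcomere is the contractile unit of muscle. Its thin filaments, made of actin, are anchored at the Z-disc, and its thick filaments, made of myosin, are held together in the middle at the M-band. NEBL encodes nebulette, a cardiac relative of nebulin that binds actin and alpha-actinin beside the Z-disc; the same gene also gives a shorter LIM-domain form. FLNC encodes filamin C, an actin crosslinker of the Z-disc and of the membrane contacts of muscle fibres. MYOM2 encodes myomesin 2, a protein that ties myosin filaments together at the M-band. TMOD1 encodes tropomodulin 1, which caps the pointed end of the thin filament and limits its length. Inherited variants of several Z-disc genes, FLNC among them, are known causes of human cardiomyopathy.

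The values are MAS5 signals, a linear measure of hybridisation that the authors scaled to a common level on each array. Median signals were 142 to 146 in the controls, 160 to 234 in the Dobermans, 132 to 145 in the Boxers and 207 to 219 in the paced mongrels. GAPDH control probe sets at the 3′ and the 5′ end of the transcript give a ratio that rises when RNA is broken. This 3′/5′ ratio was 1.08 for Doberman K but 2.10 for L and 3.62 for R. The 10 other arrays had ratios of 0.967 to 1.09. The part of this ratio in the results was not tested apart from the alternatives given below, and values of K, L and R are therefore given separately wherever a result rests on the Dobermans. The median change of all tested probe sets against the controls, on the log2 scale, was 0.19 in the Dobermans, -0.03 in the Boxers and 0.06 in the paced mongrels. After quantile normalization these medians were 0.02, 0.00 and -0.05, and after centring each array on its median the same probe sets gave -0.25, 0.04 and -0.45. The split of calls moved too, from 2047 higher and 1597 lower in the Dobermans to 1076 and 1650 after quantile normalization and 507 and 3115 after centring. In the paced mongrels 1212 higher and 535 lower became 629 and 846, and 530 and 3394. Changes of members are given as deposited. Where a scaling turned the sign of a member's change in the 6 comparisons of pairs of groups, that value is also given.

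Tropomodulin 1 gave the only members that passed the test against the controls. Both of its brighter probe sets fell in the Dobermans, and both had lower means in the Boxers and the paced mongrels than in the controls without passing. The brightest of the 3, 1583905_at, read 6230.9 in P1, 6211 in P4 and 5066.8 in P9. Dobermans K, L and R read 3316.4, 3403.8 and 4396.3. All 3 Dobermans lay below all 3 controls, K and L more so than R. The Boxers read 3897.2, 4225.2, 4458.8 and 4865.2, and the paced mongrels 3358, 4471.6 and 4320.4. Every one of these 7 samples also lay below the lowest control, while the Doberman, Boxer and paced ranges overlapped one another.

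Group means of 1583905_at were 5836 ± 666 for the controls (SD, n = 3), 4362 ± 407 for the Boxers (SD, n = 4), 4050 ± 604 for the paced mongrels (SD, n = 3) and 3706 ± 600 for the Dobermans (SD, n = 3). In the Dobermans the probe set was 1.58-fold lower than in the controls, a log2 change of -0.66 ± 0.18 (SE) with a limma adjusted p of 0.0221. The changes were -0.42 ± 0.17 in the Boxers (adjusted p = 0.603 in limma) and -0.53 ± 0.18 in the paced mongrels (adjusted p = 0.0696). The sign was the same under both scalings in all 3 groups. The limma changes between the 3 other groups ran from -0.24 to 0.11 and none passed as deposited; that of the Boxers against the paced mongrels, 0.11, turned to -0.07 after quantile normalization. After centring, the Boxers were higher than the Dobermans and the paced mongrels by 0.75 and 0.69 (adjusted p = 0.00995 and 0.0135).

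The Doberman call on 1583905_at held in 16 of 24 alternatives. Its adjusted p was 0.0732 without control P1, 0.0695 without P4 and 0.064 without Doberman L. After quantile normalization the change was -0.49 (adjusted p = 0.0634). In Doberman K alone, whose GAPDH ratio was near that of the other arrays, the change was -0.81, larger than in all 3, with a limma adjusted p of 0.055. With the GAPDH ratio as a covariate the change was also larger, -0.87, and missed the threshold (limma adjusted p = 0.0771). The paced change passed in 7 of 23 alternatives, among them centring (-1.04, adjusted p = 0.00455) and leaving out any 1 Doberman.

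The probe set 1586594_at of TMOD1 showed a wider split inside the Dobermans. It read 1256.3, 1422 and 1322.4 in controls P1, P4 and P9, and 1137.9 in Doberman K against 293.6 in L and 363.8 in R. K thus lay just under the controls, and the fall came from L and R, the arrays with raised GAPDH ratios. The Boxers read 920.8, 701.1, 659.9 and 872.3, all below the controls. The paced mongrels read 795, 1617.7 and 1068.4 and spanned the control range, with LV02 the highest of all 13 samples.

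Means of 1586594_at were 1334 ± 83.4 for the controls (SD, n = 3), 1160 ± 419 for the paced mongrels (SD, n = 3), 789 ± 127 for the Boxers (SD, n = 4) and 598 ± 469 for the Dobermans (SD, n = 3). The Doberman level was 2.62-fold lower than the control level, a log2 change of -1.39 ± 0.39 (SE) with a limma adjusted p of 0.0249. It was 2.20-fold lower than in the paced mongrels (-1.14 ± 0.39, adjusted p = 0.0495), although K overlapped the paced samples and the call held in 5 of 24 alternatives. Without L and R the difference from the controls was -0.22 (limma adjusted p = 0.746), and that from the paced mongrels turned to 0.03 (adjusted p = 0.958). With the GAPDH ratio as a covariate the change against the controls was -0.51 (limma adjusted p = 0.541). The call against the controls was also lost on leaving out any single array of the controls, or L or R, with adjusted p of 0.0599 to 0.104. The Boxer change of -0.76 ± 0.37 and the paced change of -0.26 ± 0.39 did not pass (limma adjusted p = 0.696 and 0.707). The Boxer difference from the paced mongrels, -0.50, was 0.08 after centring.

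The third TMOD1 probe set, 1596343_at, was dim and had its highest mean in the paced mongrels. Controls P1, P4 and P9 read 257.5, 185.9 and 225.6, Dobermans K, L and R read 205.5, 372.8 and 281.4, and the Boxers read 187.8, 228.8, 215 and 214.7. The paced mongrels read 340.6, 331.7 and 351.6, so that all 3 lay above every control and every Boxer. Means were 341 ± 9.97 for the paced mongrels (SD, n = 3), 287 ± 83.8 for the Dobermans (SD, n = 3), 223 ± 35.9 for the controls (SD, n = 3) and 212 ± 17.2 for the Boxers (SD, n = 4). The paced change was 0.59 ± 0.23 against the controls (limma adjusted p = 0.109) and the Boxer change against the paced mongrels was -0.65 ± 0.22 (adjusted p = 0.0514). Neither passed as deposited, and both shrank under the scalings. The Boxer difference passed in 8 of 23 alternatives but was -0.26 after quantile normalization and -0.08 after centring (limma adjusted p = 0.398 and 0.747). The paced change passed in 2 of 23, and was 0.27 and 0.08 under the same scalings, of which centring lowers the paced arrays. In the Dobermans the change of 0.31 ± 0.23 (limma adjusted p = 0.31) became -0.03 after quantile normalization and -0.13 after centring, and K lay 0.10 below the control mean. The Boxer change of -0.06 was 0.01 under both scalings, and the Doberman difference from the Boxers, 0.38, was -0.04 and -0.13.

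**Figure D1:**
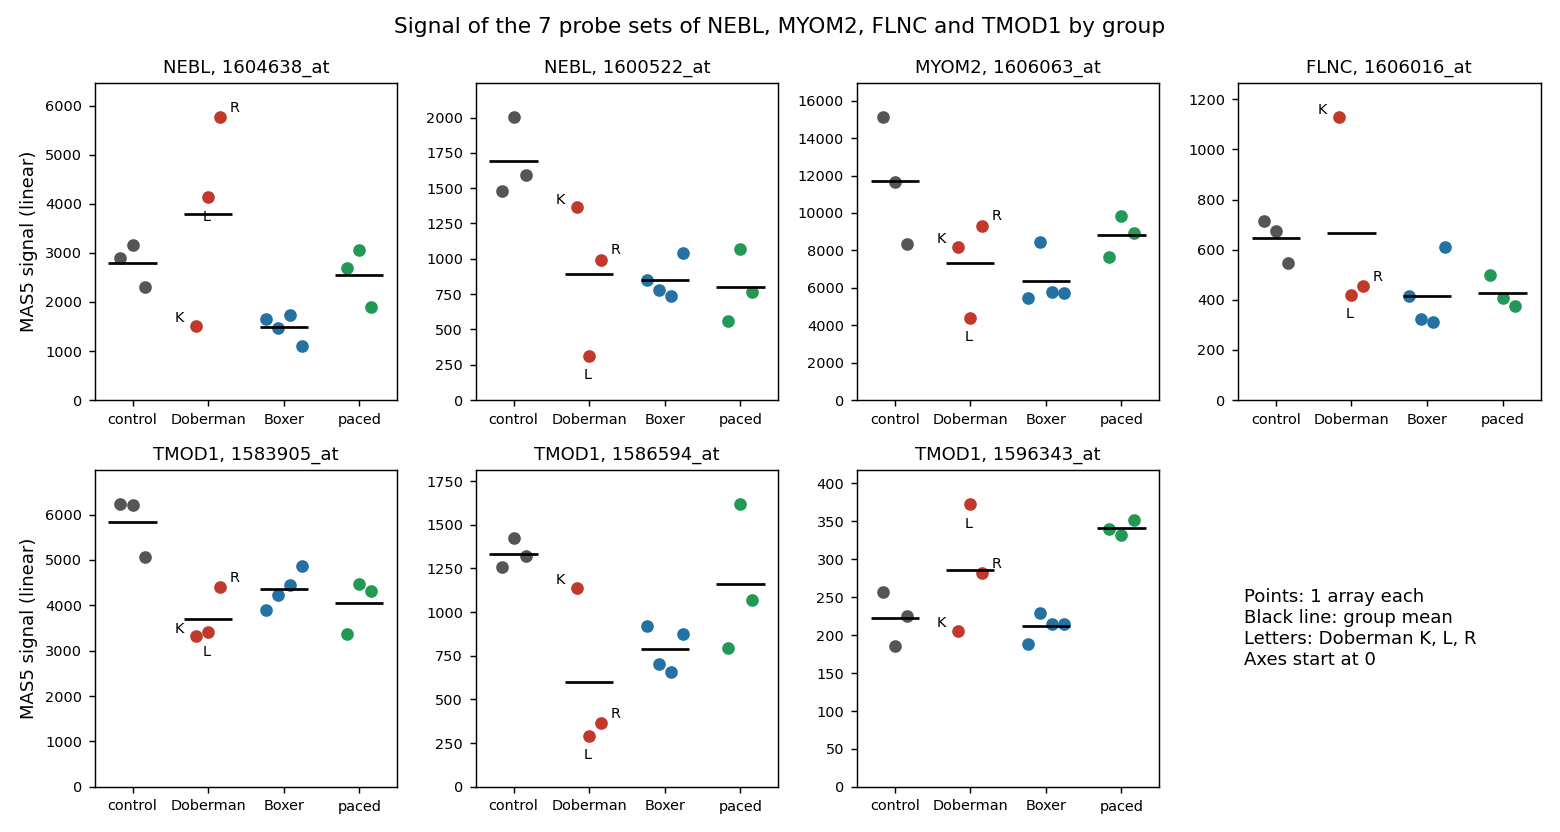
MAS5 signal (linear axis from 0) of the 7 probe sets in the 13 samples, by group, with 1 point for each array and a black line at each group mean; Dobermans are marked K, L and R. In TMOD1 1583905_at and NEBL 1600522_at all 10 samples of the other groups lie below the lowest control, and in NEBL 1604638_at and FLNC the Dobermans lie far apart.

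Nebulette was measured by 2 probe sets whose patterns differed. The first, 1604638_at, was lowest in the Boxers and highest in 2 of the 3 Dobermans. The controls P1, P4 and P9 read 2902.3, 3162.5 and 2294.1, and the Boxers 1661.3, 1465.3, 1728.2 and 1111.3, so that all 4 Boxers lay under all 3 controls. The paced mongrels read 2690.5, 3051.2 and 1904.1 and overlapped the controls, and LV04, the lowest of them, still lay above every Boxer. Doberman K read 1511.6, inside the Boxer range, whereas L read 4130.7 and R read 5758.2, above every other sample.

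Means of 1604638_at were 3800 ± 2143 for the Dobermans (SD, n = 3), 2786 ± 446 for the controls (SD, n = 3), 2549 ± 587 for the paced mongrels (SD, n = 3) and 1492 ± 277 for the Boxers (SD, n = 4). The first 3 of these neighbours in order overlapped. The Dobermans were 2.23-fold higher than the Boxers, a log2 change of 1.16 ± 0.35 (SE) with a limma adjusted p of 0.0243. This difference rested on L and R: without both it was 0.04 (adjusted p = 0.956), without L it was 1.00 (adjusted p = 0.0985) and without R 0.76 (adjusted p = 0.114). Leaving out Boxer 4 gave 1.03 (adjusted p = 0.0617), and centring the arrays gave 0.65 (adjusted p = 0.115). With the GAPDH ratio as a covariate it was 0.11 (limma adjusted p = 0.872).

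Against the controls the Boxer change of 1604638_at was -0.90 ± 0.35, which had an unadjusted limma p of 0.0235 and an adjusted p of 0.585. The Doberman change was 0.26 ± 0.38 (adjusted p = 0.618) and turned to -0.18 after centring; without K it was 0.82 and passed (adjusted p = 0.0152). The paced change was -0.14 ± 0.38 (adjusted p = 0.835), with 0.03 after quantile normalization. The Boxers were also below the paced mongrels by 0.76 ± 0.35 on the log2 scale (limma adjusted p = 0.149). This difference passed in 4 of 23 alternatives, and was -0.18 after centring (adjusted p = 0.652).

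The second nebulette probe set, 1600522_at, was lower in every diseased or paced sample than in every control. It read 1478.2, 2001 and 1595.5 in P1, P4 and P9. Among the Dobermans K read 1364.4, L read 313.4 and R read 994.7. The Boxers read 850, 780.5, 734.3 and 1043.2, and the paced mongrels 559.8, 1070.3 and 768.5. K was the nearest to the controls and L the lowest of all 13 samples.

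Means of 1600522_at were 1692 ± 274 for the controls (SD, n = 3), 891 ± 533 for the Dobermans (SD, n = 3), 852 ± 136 for the Boxers (SD, n = 4) and 800 ± 257 for the paced mongrels (SD, n = 3). The log2 changes against the controls were close in size, at -1.13 ± 0.41 in the Dobermans, -0.98 ± 0.38 in the Boxers and -1.10 ± 0.41 in the paced mongrels. None passed in limma, with adjusted p of 0.0545, 0.585 and 0.0922. In K alone the change was -0.30. The 3 groups differed from one another by -0.16 to 0.13 on the log2 scale, and both scalings kept the lower sign against the controls in each. The Doberman difference from the paced mongrels, -0.03, was 0.04 after centring. The Doberman change against the controls passed in 4 of 24 alternatives: without K, with centring, with a pseudocount of 64 and with array weights, with limma adjusted p of 0.00502 to 0.0491. The paced change passed in limma in 5 of 23 alternatives: without K, without L, with centring, with array weights and in a fit of the paced and control arrays alone, with adjusted p of 0.00567 to 0.0346.

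Filamin C, on 1606016_at, showed no change that passed in the 6 comparisons of the full groups. Controls P1, P4 and P9 read 713.3, 674.7 and 546.4. Doberman K read 1127.5, the highest of all 13 samples, while L read 419.2 and R 453.7, below every control. The paced mongrels read 498.5, 407.9 and 374.8, all below the controls, and the Boxers read 416, 322.8, 311.4 and 611.3, of which 3 lay below them.

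Means for FLNC were 667 ± 399 for the Dobermans (SD, n = 3), 645 ± 87.4 for the controls (SD, n = 3), 427 ± 64 for the paced mongrels (SD, n = 3) and 415 ± 139 for the Boxers (SD, n = 4). The Doberman mean lay near the control mean, with K far above it and L and R below. The log2 changes against the controls were -0.09 ± 0.34 in the Dobermans, -0.66 ± 0.32 in the Boxers and -0.58 ± 0.34 in the paced mongrels (limma adjusted p = 0.85, 0.696 and 0.282). In K alone FLNC stood 0.80 above the controls, 1.46 above the Boxers (adjusted p = 0.042) and 1.38 above the paced mongrels (adjusted p = 0.0185) in limma, and these values rest on 1 array, assumed to vary like the other groups. The paced change passed in 1 of 23 alternatives, the fit of the paced and control arrays alone (limma adjusted p = 0.0453). The Boxers differed from the paced mongrels by -0.08, which became 0.13 after quantile normalization and 0.50 after centring.

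Myomesin 2, on 1606063_at, had lower means in all 3 other groups than in the controls, and none of these differences passed. The controls spread widely, at 15109 in P1, 11657.9 in P4 and 8318.1 in P9. Dobermans K, L and R read 8197.5, 4403.2 and 9325.8. The Boxers read 5474, 8446.6, 5752.2 and 5750.5, and the paced mongrels 7625.7, 9856.9 and 8930.7. P9 lay inside the range of each of the other groups, so no group stood apart from the controls, and L was the lowest of all samples.

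Means for MYOM2 were 11700 ± 3396 for the controls (SD, n = 3), 8804 ± 1121 for the paced mongrels (SD, n = 3), 7309 ± 2579 for the Dobermans (SD, n = 3) and 6356 ± 1400 for the Boxers (SD, n = 4), and all neighbours in this order overlapped. The log2 changes against the controls were -0.86 ± 0.27 in the Boxers, -0.71 ± 0.29 in the Dobermans and -0.38 ± 0.29 in the paced mongrels. The Boxer change had the smallest unadjusted p of the members in that comparison, 0.00673, and an adjusted p of 0.436 in limma. The Doberman and paced changes had limma adjusted p of 0.081 and 0.419, and all 3 stayed below 0 under both scalings. The Doberman change passed in 2 of 24 alternatives, without K (-0.82, limma adjusted p = 0.0401) and after centring (-1.15, adjusted p = 0.0269), and the Boxer change in 1 of 23, with array weights (adjusted p = 0.0373). Centring turned the Doberman difference from the Boxers from 0.15 to -0.36, and that of the Boxers from the paced mongrels from -0.48 to 0.09. Without P1 the changes were smaller, -0.50 in the Dobermans, -0.65 in the Boxers and -0.17 in the paced mongrels.

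Against the controls, the test of the Dobermans thus called 2 of the 7 probe sets, both of TMOD1 and both lower. Over all tested probe sets 25.5% were called in either direction and 11.2% lower. The Doberman range lay wholly below the control range in 3 of the 7 (the 2 brighter TMOD1 probe sets and NEBL 1600522_at) against 12.6% of all probe sets. The Boxer comparison called 0 of the 7, where 0.0420% of all probe sets were called; 4 of the 7 had an unadjusted p under 0.05 in limma, against 7.40% of all. These were both NEBL probe sets, MYOM2 and TMOD1 1583905_at. The Boxer range lay wholly below the controls in 4 of the 7, against 9.38%: both NEBL probe sets and the 2 brighter ones of TMOD1. The paced comparison also called 0 of the 7, against 12.2% called over all probe sets; 3 had an unadjusted p under 0.05 (28.7% of all). The paced range lay below the controls in 3 (NEBL 1600522_at, FLNC and TMOD1 1583905_at), against 18.0%, and above them in 1 (TMOD1 1596343_at), against 26.1%. These 3 comparisons share the control arrays, so that a control that happens to be high lowers all of them. The members were also chosen with earlier results of these data known, and probe sets of the same gene are counted separately. No conclusion is therefore drawn from a count above the share of all probe sets.

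Between the disease groups, 1 of the 7 was called for Dobermans against Boxers, NEBL 1604638_at, with 35.4% of all probe sets called and 21.8% higher. Dobermans against paced mongrels called 1 of 7, TMOD1 1586594_at, with 24.6% of all called and 11.5% lower. Boxers against paced mongrels called 0 of 7, with 17.7% of all called; 1 member had an unadjusted p under 0.05 against 33.6%. The Boxer range lay below the paced range in 2 members, NEBL 1604638_at and TMOD1 1596343_at, where 26.9% of all probe sets did so. In these 3 comparisons the members' counts were thus near or below the background.

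**Figure D2:**
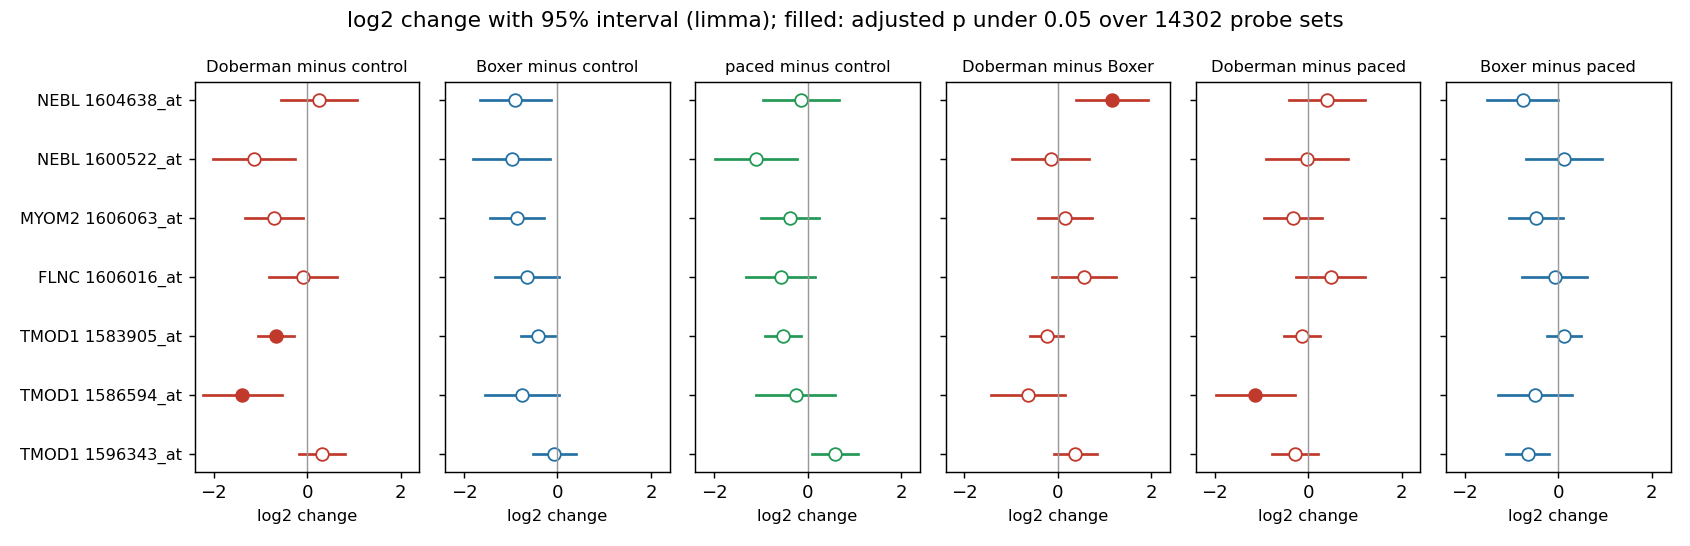
log2 change of the 7 probe sets in the 6 comparisons, as the point, with its 95% interval from limma as the line; filled points have an adjusted p under 0.05 over the 14302 tested probe sets. There are 4 filled points: TMOD1 1583905_at and 1586594_at in Dobermans against controls, TMOD1 1586594_at in Dobermans against paced mongrels, and NEBL 1604638_at, the only one above 0, in Dobermans against Boxers.

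After the values were seen, the mean of the Doberman, Boxer and paced groups was also set against the controls. All 10 samples lay below the lowest control in 2 probe sets, TMOD1 1583905_at (highest of the 10 at 4865.2 against the lowest control at 5066.8) and NEBL 1600522_at (1364.4 against 1478.2). Of all probe sets, 2.01% showed this. In TMOD1 1586594_at 9 of the 10 did so, in FLNC 8, in MYOM2 and in NEBL 1604638_at 6 each, and in TMOD1 1596343_at none. The log2 changes of this added contrast were -0.54 ± 0.15 for TMOD1 1583905_at and -1.07 ± 0.33 for NEBL 1600522_at, with limma adjusted p of 0.0882 and 0.11. None of the 7 passed in limma, against 1.14% of all probe sets in either direction and 0.461% lower, while 4 had an unadjusted p under 0.05 against 21.8%. Leaving out Doberman K brought 5 of them under an adjusted p of 0.05 in limma. The calls over all tested probe sets rose with this from 163 to 3279. Quantile normalization brought none, with 23 called over all.

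Dobermans K, L and R did not form one pattern in these genes. Measured from the control mean on the log2 scale, NEBL 1604638_at was at -0.86 in K against 0.58 in L and 1.06 in R. FLNC had the opposite order, 0.80 in K against -0.59 and -0.48. TMOD1 1586594_at was at -0.22 in K against -2.12 and -1.83. In these 3 probe sets L and R lay together and K apart. NEBL 1600522_at was at -0.30, -2.36 and -0.75 in K, L and R, and MYOM2 at -0.47, -1.36 and -0.28, so that L alone stood out in both. TMOD1 1583905_at was the one probe set with a similar fall in each dog, at -0.81, -0.77 and -0.40. GAPDH ratios were 1.08, 2.10 and 3.62 in K, L and R, and the part of the ratio in these differences was not tested.

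**Figure D3:**
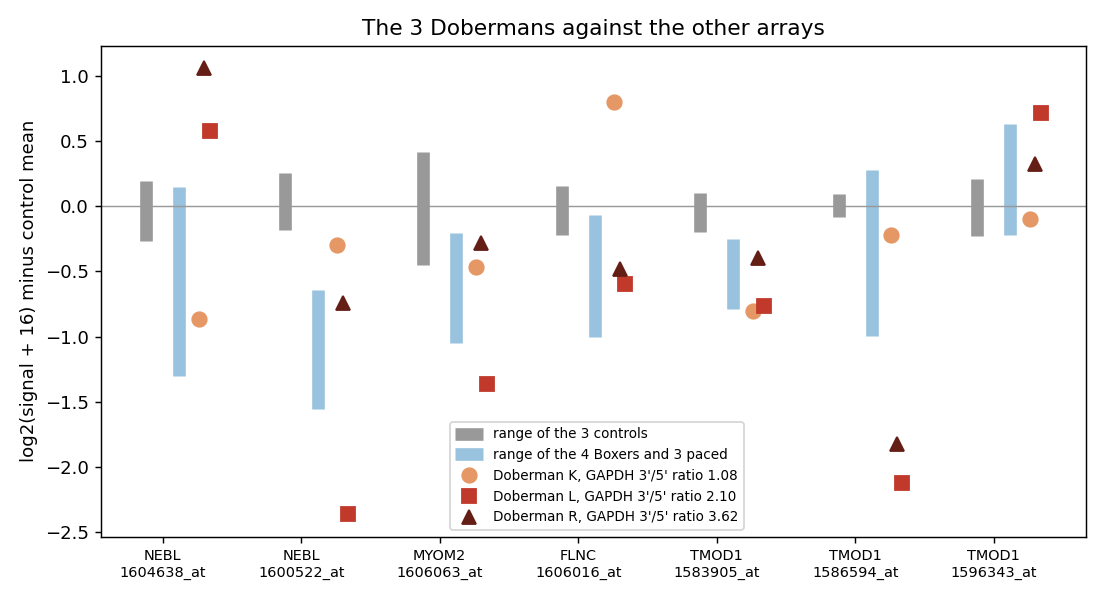
Each Doberman's log2(signal + 16) minus the control mean for the 7 probe sets (symbols), beside the range of the 3 controls (grey bars) and of the 4 Boxers and 3 paced mongrels (blue bars). L and R lie together and away from K in NEBL 1604638_at, FLNC and TMOD1 1586594_at, whereas in TMOD1 1583905_at all 3 lie below the control range.

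The probe sets of one gene did not follow one another across the 13 arrays. For the pair of NEBL Pearson's r was -0.11, and -0.37 after taking out the group means. TMOD1 1583905_at and 1586594_at had r = 0.47, and -0.02 within groups. The dim TMOD1 probe set had r of -0.36 and -0.33 with the other two. NEBL 1600522_at and TMOD1 1586594_at, from different genes, were nearer to each other (r = 0.74, and 0.80 within groups), and both were lowest in Doberman L. These values share the 13 arrays and their scaling. Where each probe set lies along its transcript was not analysed here. The log2 difference between TMOD1 1583905_at and 1596343_at was 4.39 to 4.95 in the controls, 4.12 to 4.40 in the Boxers, 3.14 to 3.91 in the Dobermans and 3.24 to 3.69 in the paced mongrels. The Doberman and paced ranges thus lay apart from those of the controls and Boxers. This is as deposited, and the Doberman and paced arrays also had higher median signals. After quantile normalization the paced changes of 1583905_at and 1596343_at against the controls were -0.35 and 0.27, beside -0.53 and 0.59 as deposited. Those of the Dobermans were -0.49 and -0.03, beside -0.66 and 0.31. The part of the scaling in this separation was not tested. Whether 2 probe sets of a gene shifted differently between groups was examined in 28 exact permutation tests (two-sided), whose smallest possible p was 0.1 for 3 samples against 3 and 0.0286 for 4 against 3. No test could pass on its own after adjustment over the 28, so the smallest adjusted p of 0.2 says nothing on whether the probe sets shifted together. For TMOD1 1583905_at and 1596343_at the tests of the Dobermans and of the paced mongrels against the controls and against the Boxers gave the smallest p possible for their sizes. The added contrast gave an exact permutation p of 0.021 for this pair.

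Other genes of the same structures were taken from 4 lists, of Z-disc, M-band, thin filament end and nebulin family, and thin filament genes. Of their 57 genes, 35 had a tested probe set, and the brightest was used for each. In the Dobermans 8 rose and 3 fell against the controls, with a median log2 change of 0.31, beside 11.9% of all 5242 genes that rose, 14.0% that fell and a median of 0.04. By list, 6 of 18 Z-disc genes rose and 3 fell, 1 of 9 thin filament genes and 1 of 6 thin filament end genes rose, and neither of the 2 M-band genes passed on its brightest probe set. Over all tested probe sets of these M-band genes, 1 of 2 was called for MYOM1 and 2 of 4 for CMYA5, in either direction. With L and R left out, 2 of the 35 rose and 2 fell, with a median of -0.08, beside 1.20% and 2.06% of all genes. With all 3 Dobermans, 8 rose and 4 fell after quantile normalization, beside 7.94% and 13.3% of all genes, with a median of 0.11. After centring 1 rose and 6 fell, beside 2.61% and 27.1%, so that the share that fell was below that of all genes.

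Among Z-disc genes, FHL2, a LIM protein that binds titin and signalling enzymes, had the smallest p in the Dobermans. It read 18477.1, 20271.1 and 16283.6 in P1, P4 and P9 and 7644.6, 7448.9 and 6504.9 in K, L and R. All 3 Dobermans lay below all 3 controls, and the change was -1.35 ± 0.18 with a limma adjusted p of 0.00204; it passed in K alone too (-1.26, adjusted p = 0.0139). SYNPO2, an actin-binding partner of filamin and alpha-actinin, rose by 1.20 ± 0.29 (adjusted p = 0.0143), from 253.2 to 269.1 in the controls to 1001.5, 499.6 and 462.8 in K, L and R. Its rise was highest in K, as FLNC was, and it did not pass after centring (limma adjusted p = 0.12).

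DES, the intermediate filament that links Z-discs, rose by 1.26 ± 0.28 (limma adjusted p = 0.0112), but unevenly, with 18715.9 in K against 45938.9 in L and 44678.3 in R, and controls of 12766.3 to 15949.2. PDLIM5, an adaptor that binds alpha-actinin, fell by 1.87 ± 0.40 on the log2 scale (adjusted p = 0.0105), with 5654.2 in K against 1153.6 in L and 1616.7 in R. TCAP, or telethonin, which caps titin at the Z-disc, rose by 1.08 ± 0.29 (adjusted p = 0.0218) and read 18353.4 in K but 50587.8 and 44408.2 in L and R. None of these 3 passed in limma in K alone, with log2 changes there of 0.41, -0.51 and 0.16. DES and TCAP, like NEBL 1604638_at, were thus highest in L and R, the arrays with raised GAPDH ratios.

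Closer relatives of the members gave mixed values. TMOD2, another tropomodulin, rose in the Dobermans by 1.05 ± 0.32 and in the paced mongrels by 1.29 ± 0.32 (limma adjusted p = 0.0316 and 0.0194). In both groups TMOD1 1583905_at had a lower mean than in the controls, passing only in the Dobermans. The mean of TMOD1 1596343_at was higher in both, without passing. Signals of TMOD2 were low, 130.9 to 166.6 in the controls, 181.7, 454.1 and 413.5 in K, L and R, and 368.5 to 402.1 in the paced mongrels. The Doberman rise did not pass under either scaling or in K alone (0.26, adjusted p = 0.7), and the paced rise passed under both. TMOD4, a further tropomodulin with low signals, changed by 0.23 in the Dobermans and 1.02 in the paced mongrels (limma adjusted p = 0.65 and 0.0854). LMOD2, the leiomodin that lengthens thin filaments, changed by 0.20 ± 0.20 in the Dobermans and -0.16 ± 0.20 in the paced mongrels (limma adjusted p = 0.464 and 0.627). NEB, encoding nebulin, changed by 0.22 ± 0.36 in the Dobermans and 0.24 ± 0.36 in the paced mongrels (adjusted p = 0.657 and 0.702).

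MYOM1, the other myomesin measured, read 20283.7, 17998.4 and 14635.3 in the controls and 16531.5, 19532 and 31395.9 in K, L and R on its brighter probe set, 1583275_at (0.31 ± 0.23, limma adjusted p = 0.305). Its second probe set, 1600209_at, read 2901.3 to 3426.6 in the controls and 2217.3, 129.1 and 156.7 in K, L and R, a change of -3.04 ± 0.74 (adjusted p = 0.0148) that was -0.49 in K alone. ACTN2, the alpha-actinin to which nebulette binds, did likewise: 1586044_s_at changed by -0.26 ± 0.18 (adjusted p = 0.273) and 1591220_at by -2.26 ± 0.44 (adjusted p = 0.00773), with 7138.6 in K against 1226.1 in L and 2038.4 in R, while 1597846_at changed by 0.30 (adjusted p = 0.312). NRAP, an actin-binding protein of the nebulin family, had 1584506_at at 0.64 ± 0.31 (adjusted p = 0.13) and 1601562_at at -0.88 ± 0.21 (adjusted p = 0.0139). In these 3 genes, as in NEBL, 1 probe set was lower in L and R than in K while another was higher. FLNA, a filamin found outside muscle too, was 0.71 ± 0.26 above the controls in the Dobermans (limma adjusted p = 0.0612) and passed against the Boxers (1.08, adjusted p = 0.00841), though not after centring; these values are of its brightest probe set, 1598914_at. Its 1589785_s_at rose in the Dobermans by 1.34 ± 0.39 (limma adjusted p = 0.0272), in 17 of 23 alternatives. The changes of 1603274_at and 1604976_at there were 0.53 ± 0.30 and -1.43 ± 0.83 (limma adjusted p = 0.193 and 0.201). FLNA showed the same split between K and the other Dobermans. Its 1604976_at read 976.6 in K against 15.6 in L and 159.3 in R, and 1603274_at read 185.7, 227.5 and 213.1. LDB3 and MYOZ2, both alpha-actinin-binding Z-disc proteins, changed in the Dobermans by -0.10 ± 0.28 and -0.22 ± 0.20 (limma adjusted p = 0.807 and 0.412). MYOM3, TMOD3, LASP1 and CSRP3 were not analysed here.

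Of the thin filament genes, TPM2, a tropomyosin, rose in the Dobermans by 0.76 ± 0.15 (limma adjusted p = 0.0073), with signals of 2840, 3031.2 and 3187 for K, L and R beside 1634.4 to 1851.1 for the controls, and did so in K alone (adjusted p = 0.045). It did not pass after centring (0.32, adjusted p = 0.163). ACTA1, the skeletal form of sarcomeric actin, rose in the paced mongrels by 2.88 ± 0.38 (adjusted p = 0.00112), in each of 22 alternatives.

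In the Boxers 0 of the 35 genes passed in limma, beside 0.0191% of all genes that rose and 0.0382% that fell, and their median change was -0.05. In the paced mongrels 3 rose and none fell, with a median of -0.17, beside 5.11% and 4.04% of all genes: TMOD2, ACTA1 and NEXN, an actin-binding Z-disc protein (0.82 ± 0.23, limma adjusted p = 0.0321). After quantile normalization 4 rose and 0 fell, beside 2.8% and 5.53% of all genes. After centring, 2 rose and 13 fell, beside 1.81% and 29.9% of all genes. Dobermans against Boxers gave 8 higher and 5 lower of 35, where 16.8% and 17.3% of all genes did so; the counts were 4 and 7 after quantile normalization (10.7% and 16.9% of all genes), 1 and 10 after centring (3.83% and 37.1%), and 1 and 2 without L and R (1.07% and 1.37%). Besides those named, PDLIM3, an alpha-actinin-binding LIM protein, was lower by 1.45 on the log2 scale (limma adjusted p = 0.00458). Dobermans against paced mongrels gave 12 higher and 4 lower, beside 13.5% and 11.0%, with 7 of the 9 thin filament genes higher, and 2 of 9 after quantile normalization or without L and R, where 15.0% and 8.13% of all genes were higher. Over all 35 genes that comparison gave 5 higher and 7 lower after quantile normalization, beside 15.0% and 14.4% of all genes. After centring it gave 13 higher and 4 lower, beside 15.8% and 6.41%, with 7 of the 9 thin filament genes higher. Boxers against paced mongrels gave 2 higher and 3 lower, beside 5.84% and 8.30%. These counts were 1 and 1 after quantile normalization, beside 6.89% and 3.74%, and 22 and 1 after centring, beside 41.2% and 2.27%.

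**Figure D4:**
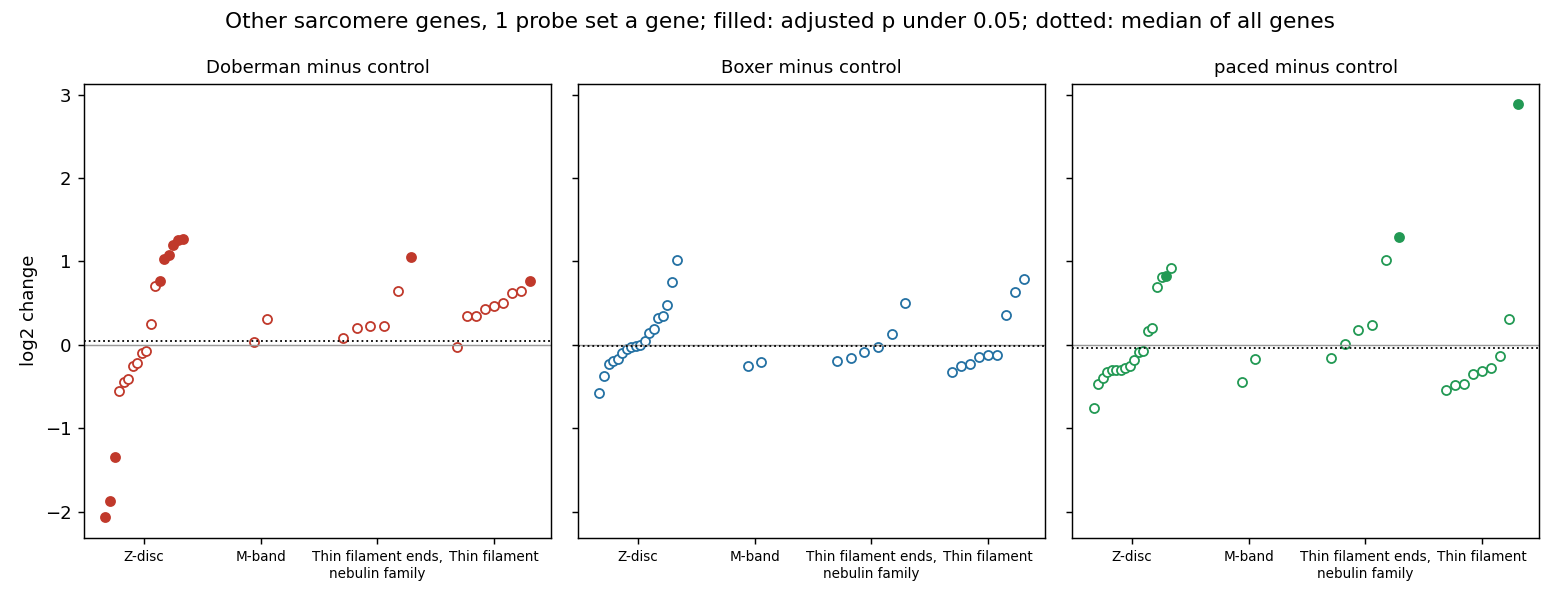
log2 change of the 35 other sarcomere genes against the controls in the Dobermans, Boxers and paced mongrels, 1 point for each gene by list; filled points have an adjusted p under 0.05 and the dotted line is the median of all 5242 genes. The Dobermans have 11 filled points in both directions, the Boxers 0 and the paced mongrels 3, all above 0.

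The genes whose log2 signal was most like each member over the 13 arrays were sought among 5241 others, with Pearson's r as a description. For TMOD1 1583905_at these were SUCLG1, a subunit of a citric acid cycle enzyme (0.93), CCNH, a cyclin of the general transcription machinery (0.91), and NDUFS4, a subunit of respiratory complex I (0.86), and the least like was LYSMD2 (-0.87). Within groups SUCLG1 and CCNH ranked 2 and 1, and NDUFS4 ranked 54. For MYOM2 they were LGR4 (0.89), MRPL27, a mitochondrial ribosomal protein (0.85), and PA2G4 (0.85), and the least like was CILP, a matrix protein (-0.86); within groups the first 3 ranked 8, 2 and 59. For FLNC they were NBR1, an autophagy receptor that binds titin (0.89), DUSP3 (0.80) and TIMM10B (0.79), and the least like was TMEM62 (-0.87); within groups they ranked 4, 302 and 226. For NEBL 1604638_at they were TBC1D17 (0.92), HINT1 (0.91) and BPIFA1 (0.90), and the least like was TGFBR2, a receptor for TGF-beta (-0.91); within groups they ranked 28, 45 and 51. The arrays share their scaling, and L and R are the outlying points for NEBL.

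In bulk tissue fewer cells of a type and less RNA per cell cannot be told apart, so marker genes were summed for each array. All 10 cardiac muscle markers were measured, with summed signals of 210000 to 309000 in the controls, 229000 to 457000 in the Dobermans, 213000 to 240000 in the Boxers and 186000 to 208000 in the paced mongrels. The paced arrays lay just below every control, and none of the 10 markers passed there in limma. TMOD1 1583905_at, NEBL 1600522_at and FLNC also lay below every control in the paced mongrels. After quantile normalization their paced changes were -0.35, -1.03 and -0.71. For the markers TNNT2, TNNI3, TNNC1, ACTC1 and ACTN2 (1586044_s_at) they were -0.074, -0.055, 0.031, 0.072 and 0.007. After centring, these markers changed by -0.996 to -0.828. The Dobermans overlapped the control range of the sums and reached above it. The sums are not split by dog here, but the markers TNNI3 and TNNC1 were high in L and R only. They read 25869.8 and 28047.8 in K, 61322.2 and 57862.4 in L, and 62307.5 and 66231.1 in R. Doberman means were below the control means for RYR2 (3860 against 8210) and ACTN2 (20400 against 24500), and above them for the other markers. Of the 10 markers, 0 rose and 1 fell in the Dobermans against the controls in limma. Of the 7 skeletal muscle markers 6 lay under the filter level on average over the arrays. Fibroblast markers (4 of 6 measured) summed to 11800 to 19000 in the controls, 18200 to 26500 in the Dobermans, 15800 to 25400 in the Boxers and 12200 to 14900 in the paced mongrels. DCN made up most of this sum, with a mean of 16800 in the Dobermans and 10300 in the controls. Doberman means were also higher for COL1A1 (1100 against 591), but lower for COL1A2 (2880 against 3440) and COL3A1 (923 against 1240). Of the 4, 1 rose and 0 fell in the Dobermans in limma, with a median log2 change of 0.17, beside 11.9% of all genes that rose. Those of smooth muscle (3 of 4), which also express FLNA, gave 8800 to 18700, 13600 to 22900, 15400 to 20800 and 7400 to 12500 in the same order. Macrophage markers (4 of 5) gave 747 to 2380, 1220 to 4190, 1410 to 4590 and 966 to 1430, endothelial ones (3 of 5) 5160 to 6900, 3880 to 11300, 4630 to 6880 and 4560 to 5980, and fat markers (2 of 3) 54.7 to 387, 243 to 478, 315 to 643 and 304 to 600. Atrial markers (2 of 4) overlapped between all groups, at 9450 to 19200 over the 13 arrays. The part of these cell types in the members' values was not tested.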

How the data were processed

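Heart tissue RNA was extracted with Trizol and a column clean-up and labelled in 1 amplification cycle, per the labels. The deposited values are signal intensities from MAS5 on a linear scale, per the submitters' processing notes; its version is not given in the sources used here. On the file, each array had the same trimmed mean of 500.1, and the lowest signal was 0 (3 values) and the highest 95340.1. The number of arrays limits the precision.

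Values were analysed as log2(signal + 16), after leaving out 77 control probe sets. Testing was limited to probe sets whose mean log2 reached the 40th percentile of 6.95, which is a signal of 108. A single symbol was annotated to 10549 probe sets, more than 1 to 138 and no symbol to 13149, and updating through the reference gene table changed 0. All 13 arrays entered a limma model with a mean for each group (limma 3.58.1 under R 4.3.3; 9 residual degrees of freedom), with variances moderated along an intensity trend and Benjamini-Hochberg adjustment over 14302 probe sets at 0.05. A change is on the log2(signal + 16) scale, a fold is 2 to its power, and ± is SE for changes and SD for signals.

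The members and gene lists were chosen with earlier results of these data known. Named genes are all probe sets of the members, at most 4 genes per list with the smallest p among those that passed, and a fixed set of relatives; the genes most like a member are the 3 highest and 1 lowest by Pearson's r. Alternatives were each array left out, Dobermans L and R left out together, pseudocounts of 1 and 64, quantile normalization, centring on the median, the 60th percentile as the filter or no filter, array weights, the GAPDH ratio as a covariate, no intensity trend, and a fit of the compared groups only. With 1 array left in a group, that array is assumed to vary like the other groups. The contrast of the controls with the mean of the other 3 groups was added after the values were seen. The model was tested on simulated data, but no outcome of that check is reported here, so nothing is drawn from it. Plots were made with matplotlib 3.10.9 under Python 3.11.15.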

Additional observations from a re-analysis of the deposited data

Results flagged for a closer look

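In the Boxers, MYOM2 had a sample far from the others: Boxer 2 read 8446.6 against 5474 to 5752.2 in the other 3, and its gap on the log2 scale was 0.886 of the group's range, above Dixon's 95% critical value for a group of 4. The other 6 member probe sets had gaps of 0.181 to 0.676, and chance flags about 1 in 20 groups.

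Between the breeds, NEBL 1604638_at differed by a log2 change of 1.159, Dobermans higher than Boxers, and passed the test of that difference (limma adjusted p = 0.0243). Doberman K, at 1511.6, lay inside the Boxer range of 1111.3 to 1728.2.

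Between Dobermans and paced mongrels, TMOD1 1586594_at differed by a log2 change of -1.135 and passed (limma adjusted p = 0.0495). K, at 1137.9, lay inside the paced range of 795 to 1617.7.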

How the results depend on the processing

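Of the 7 member probe sets, 2 passed in limma for Dobermans against controls. Leaving out 1 array gave 0 to 5 (5 without K, 0 without P1, P4 or L), leaving out L and R together 0, quantile normalization 1, centring 4, the GAPDH covariate 0 and a fit of the compared groups only 0. For Boxers against controls the count was 0, and 3 with array weights (both NEBL probe sets and MYOM2). For paced mongrels against controls it was 0, with 0 to 3 on leaving out 1 array (3 without K, 2 without L, 1 without R), 2 after centring, 3 with array weights, 1 with the GAPDH covariate and 3 in a fit of both groups alone. For Dobermans against Boxers it was 1, with 0 to 3 on leaving out 1 array (3 without K, 0 without L, R or Boxer 4), 0 with the GAPDH covariate and 0 in a fit of those groups alone. For Dobermans against paced mongrels it was 1, with 0 to 2 on leaving out 1 array, and 0 with centring, a pseudocount of 1, the 60th percentile filter, the GAPDH covariate, no intensity trend or those groups alone; the change of TMOD1 1586594_at turned to 0.032 without L and R. For Boxers against paced mongrels it was 0, with 0 to 2 on leaving out 1 array, 1 after centring, 1 with a pseudocount of 64, 2 with array weights, 2 with the GAPDH covariate, 1 with no intensity trend and 3 in those groups alone. For the added contrast it was 0, with 0 to 5 on leaving out 1 array (5 without K, 1 without L), 2 without L and R, 1 after centring and 4 with array weights.

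Counts over all 14302 tested probe sets moved widely as well, and the member counts above are to be read beside them. For Dobermans against controls 3644 became 1192 to 7349 on leaving out 1 array, 376 without L and R, 95 with the GAPDH covariate and 20 in those groups alone. For Boxers 6 became 12 without P9, 13 without K, 254 with array weights and 25 alone. For paced mongrels 1747 became 535 (60th percentile filter) to 4389 (no filter). Without K it was 3315, after centring 3924 and with array weights 4222. The GAPDH covariate gave 2935 and those groups alone 3576. Dobermans against Boxers went from 5066 to between 56 (GAPDH covariate) and 8110 (without K), Dobermans against paced mongrels from 3514 to between 524 (those groups alone) and 6183 (without K), and Boxers against paced mongrels from 2536 to between 905 (60th percentile filter) and 5720 (no filter). For Boxers against paced mongrels centring gave 5403, array weights 5280 and those groups alone 5197. The added contrast went from 163 to between 5 (without P4) and 3279 (without K). Centring gave 470 in that contrast and array weights 2869. The split into higher and lower calls also moved: for Dobermans against Boxers from 3117 and 1949 to 1545 and 2121 after quantile normalization and 806 and 4299 after centring, for Boxers against paced mongrels from 694 and 1842 to 1124 and 802, and 4741 and 662, for Dobermans against paced mongrels from 1863 and 1651 to 2305 and 1126 after centring, for the added contrast from 97 and 66 to 9 and 14, and 62 and 408, and for Boxers against controls from 2 and 4 to 1 and 5 after quantile normalization. The cause was not tested. The GAPDH ratio goes largely with the Doberman group, so with it as a covariate the ratio and the group cannot be told apart: the Doberman change of TMOD1 1583905_at grew from -0.66 to -0.87 while its call was lost, and that of 1586594_at shrank from -1.39 to -0.51. No paired analysis was possible because the groups share no replicate numbers. The planned search of promoters was not run.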
